A study of Capra hircus with 4 samples.

Results

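The ribosomal protein genes are the genes for the proteins of the cytoplasmic ribosome, and they were chosen here by name alone: every feature called RPL or RPS with a number and, where present, a closing letter such as A, L or X, together with RPLP0, RPLP1, RPLP2 and RPSA. The rule found 78 genes among the 28944 features measured in nuclei of goat ovaries, 32 of the small (40S) subunit and 46 of the large (60S) subunit, 3 of which form the stalk of the large subunit. RPL17, RPL34 and RPL41 were not analysed here, and neither were features named only by a locus number. Of the 78, the RefSeq table lists 77 as protein coding and RPL37A as a long non-coding RNA. All 78 had at least 1 unique molecular identifier (UMI, the tag that marks 1 captured RNA molecule) in the nuclei kept, and 76 had at least 100 UMIs. The exceptions were RPL3L with 51 UMIs and RPL10L with 1 UMI, both named for their likeness to another member.

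Ovaries of 4 goats were taken at estrus, 2 of the Du'an breed with a litter size of 1 and 2 of the Nubian breed with a litter size of 3, to ask what distinguishes a less from a more prolific ovary. All 4 were about 3 years old, all had carried a vaginal device (CIDR) with 300 mg of progesterone for 17 days before estrus, and each gave 1 library of nuclei on a droplet platform that reads the 3' end of transcripts. The replicates are called Du1 and Du2 (Du'an, 1 and 2) and Nu1 and Nu2 (Nubian, 1 and 2), and values for all of them are given in that order. Their libraries numbered 9364, 10893, 16988 and 11087 nuclei and 40573246, 60566681, 71613892 and 52783453 UMIs. After filters on UMIs, genes and mitochondrial share, 44872 of 48332 nuclei were kept, with a median of 1755, 3317, 2208 and 1896 UMIs in the same order. With 1 library per goat, breed cannot be told apart from other features common to both goats of a breed, and no separate sample of any goat gives a technical error. Library pairs shared 54 to 131 cell barcodes, 0.505% to 1.40% of the smaller library. Nuclei were clustered without the ribosomal protein genes, the marker genes and the gene lists used below, and a cluster was called X-like from markers only. Features with locus names whose levels follow the ribosomal protein genes were not left out. The clusters may therefore not be independent of the values described here. Beside the classes named, 9420 nuclei stayed unnamed.

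A ribosome carries 1 copy of nearly every ribosomal protein, so cells make these proteins in matched amounts, and their messenger RNAs are among the most abundant and longest lived in the cytoplasm. The small subunit reads the messenger RNA, the large subunit joins amino acids, and the stalk of RPLP0, RPLP1 and RPLP2 recruits the factors that drive the cycle. Most of these messenger RNAs begin with a pyrimidine tract through which growth signals set their translation, and in a nucleus only the transcripts not yet exported, with those that cling to it or come from broken cells, are captured.

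The 78 genes held little of the RNA of the nuclei kept. Their share of all UMIs was 0.235%, 0.372%, 0.301% and 0.636% in Du1, Du2, Nu1 and Nu2, with a mean of 0.386% ± 0.176 (SD, n = 4 libraries). Nu2 stood highest, and the 2 breeds overlapped. Over all deposited barcodes the share was 0.328%, 0.584%, 0.342% and 1.49% in the same order, because the barcodes removed for their UMI or gene count alone, 2350 in all, had 1.57% of their UMIs on these genes and held 46.6%, 49.5%, 31.6% and 69.7% of the UMIs of the 78 genes in each library. The levels described from here on are those of the nuclei kept. The 60S genes took 0.231% ± 0.106 and the 40S genes 0.155% ± 0.0701 (SD, n = 4), and the 3 stalk genes 0.0238% ± 0.0123 (SD, n = 4). A median nucleus held 4, 8, 5 and 7 UMIs of all 78 genes together in the 4 libraries, so no level of a single gene can be read from a single nucleus.

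Levels differed widely between genes that share 1 particle. Over the 4 library sums, the median gene had 37.4 UMIs in each 1000000 UMIs (CPM), 12 genes had at least 100 CPM and 14 had under 10 CPM. These are UMIs and not levels per transcript length, so the order of genes is an order of captured tags, and tags of near-identical processed copies elsewhere in the genome may be missing from it or included in it. RPL32 of the large subunit led with 104.7, 191.8, 145.3 and 358.3 CPM in Du1, Du2, Nu1 and Nu2. RPS9 followed with a mean of 189.0 ± 73.3 CPM, RPS19, a gene mutated in Diamond-Blackfan anaemia, with 175 ± 106 CPM, and RPL14 with 162 ± 88.0 CPM (SD, n = 4 for each). RPLP0, which anchors the stalk, had 160 ± 93.6 CPM and RPS14 114 ± 67.8 CPM (SD, n = 4 for each). RPS27A, which is made as a fusion with ubiquitin, had 113.5 ± 78.9 CPM, and RPL10, one of the last proteins to join the large subunit, had 106.3 ± 74.0 CPM (SD, n = 4 for each). These 8 genes held 31.6% of the UMIs of all 78. They were measured in the same 4 libraries, so overlapping SDs do not settle their order, which was not tested. RPS9, with 119.5, 195.4, 152.7 and 288.6 CPM, was above RPL32 in Du1, Du2 and Nu1 and below it in Nu2. RPLP0 was above its neighbour RPS14 in all 4 goats. All 8 were highest in Nu2, as were 64 of the 76 genes with at least 100 UMIs, against 32.3% of all 15290 genes with that many UMIs.

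The other stalk genes and the paralogs lay lower. RPLP1 had 43.0 ± 23.4 CPM and RPLP2 35.3 ± 7.32 CPM, and RPSA, also known as a laminin receptor, had 48.0 ± 13.7 CPM (SD, n = 4 for each). RPL36AL, a paralog of RPL36A, had 71.6 ± 28.2 CPM, against 2.77 ± 0.402 CPM for RPL36A itself (SD, n = 4 for each). RPS27L, a paralog of RPS27, had 13.9 ± 5.0 CPM against 2.53 ± 0.579 CPM for RPS27, and RPS4X, the X-linked S4 gene, had 21.1 ± 8.54 CPM (SD, n = 4 for each). In both pairs the paralog with L in its name was thus above the gene it is named for in these UMIs.

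The share of UMIs on these genes depended on the class of nucleus. By the mean of the goats the T or natural killer-like class was highest, at 0.550%, 0.523%, 1.62% and 4.31% in Du1, Du2, Nu1 and Nu2. Macrophage-like nuclei followed, with 0.757%, 0.767%, 0.748% and 2.52%, and were above that class in both Du'an goats. Blood endothelial-like nuclei had 0.346%, 0.450%, 0.363% and 1.36%, and fibroblast-like nuclei 0.536% ± 0.0783 (SD, n = 2 goats). Nu2 was the highest of the goats in the first 3 of these classes. Granulosa-like nuclei, the cells that surround the oocyte and make estradiol, had 0.197%, 0.195%, 0.226% and 0.215%, a narrow range with a mean of 0.208% ± 0.0147 (SD, n = 4). This class leaves out granulosa subclusters 7 and 8, which stayed unnamed because an immune receptor gene segment was among their leading genes. Subcluster 8, of 1044 nuclei, had 1.26%, 1.06%, 0.829% and 1.01% in the 4 goats. Subcluster 7, of 1088 nuclei, had 0.490% over all its nuclei. The lowest mean was that of mural granulosa-like nuclei, 0.142% ± 0.0317 (SD, n = 3 goats).

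**Figure D1:**
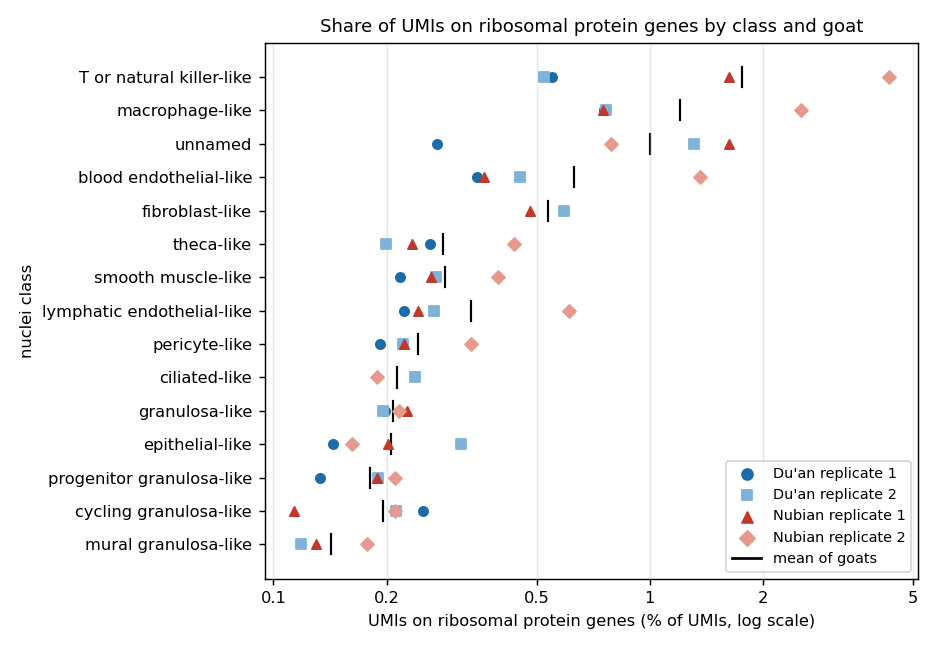
Share of UMIs on the 78 ribosomal protein genes by class of nucleus, on a log axis in percent, with 1 point per goat and a bar at the mean of the goats. T or natural killer-like and macrophage-like nuclei are highest, at means of 1.75% and 1.2%, and mural granulosa-like nuclei are lowest, at 0.142%; the 4 goats of granulosa-like nuclei lie close together and those of T or natural killer-like nuclei far apart.

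A large part of the UMIs of these genes sat in a few clusters. Of 20 clusters, 3 had more than 4% of their UMIs on ribosomal protein genes: cluster 19 with 7.64% in 211 nuclei, cluster 14 with 4.44% in 633 nuclei and cluster 6 with 4.27% in 2625 nuclei. The other clusters had 0.128% to 0.896%. Together these 3 held 7.73% of nuclei, 3.23% of all UMIs and 41.2% of the UMIs of the 78 genes. Nuclei with over 2% of their UMIs on these genes numbered 2621, and 87.4% of them were in the 3 clusters.

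Cluster 19 was T or natural killer-like and held 2163 CPM of GNLY and 2301 CPM of CCL5, which mark cytotoxic lymphocytes, against 228 and 245 CPM in cluster 8, the other T or natural killer-like cluster. Of the same marker list, IL7R held 1262 against 667 CPM, while SKAP1 went the opposite way, with 851 against 2772 CPM. Cluster 14 was macrophage-like and held 3186 CPM of C1QA, a complement gene of tissue macrophages, against 156 CPM in cluster 13, the other macrophage-like cluster. Other macrophage genes went the opposite way, with 257 against 565 CPM of MSR1 and 98.4 against 569.5 CPM of VSIG4. Cluster 6 met the marker limits of the epithelial list but was not named, because LOC102185461, which the RefSeq table lists as an immune receptor constant region, was among its 10 leading genes, and it therefore enters no class. In it 8 of 9 granulosa, 7 of 8 smooth muscle and 5 of 8 epithelial markers reached 10 CPM, and it held 548 CPM of HBBC, a haemoglobin gene, against 0 to 0.314 CPM in the other 4 clusters named here. A median nucleus had 765 UMIs in cluster 6, 843 in cluster 14 and 3858 in cluster 19, so the high share appeared at both low and high depth. It had 3333 UMIs in cluster 13 and 2169 in cluster 8. Depth thus differed within both classes, in opposite directions, and its part was not tested.

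The share of nuclei in these clusters moved with the share of UMIs between libraries. The 3 clusters held 2.57%, 8.39%, 5.6% and 14.7% of the kept nuclei of Du1, Du2, Nu1 and Nu2, and 17.6%, 29.7%, 32.5% and 63.1% of the UMIs of the 78 genes. Outside them the share of UMIs was 0.195%, 0.269%, 0.208% and 0.252%, with Nu2 below Du2. The 3 clusters were picked by this same share, so a lower value without them was fixed in advance, and the values are a description.

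**Figure D2:**
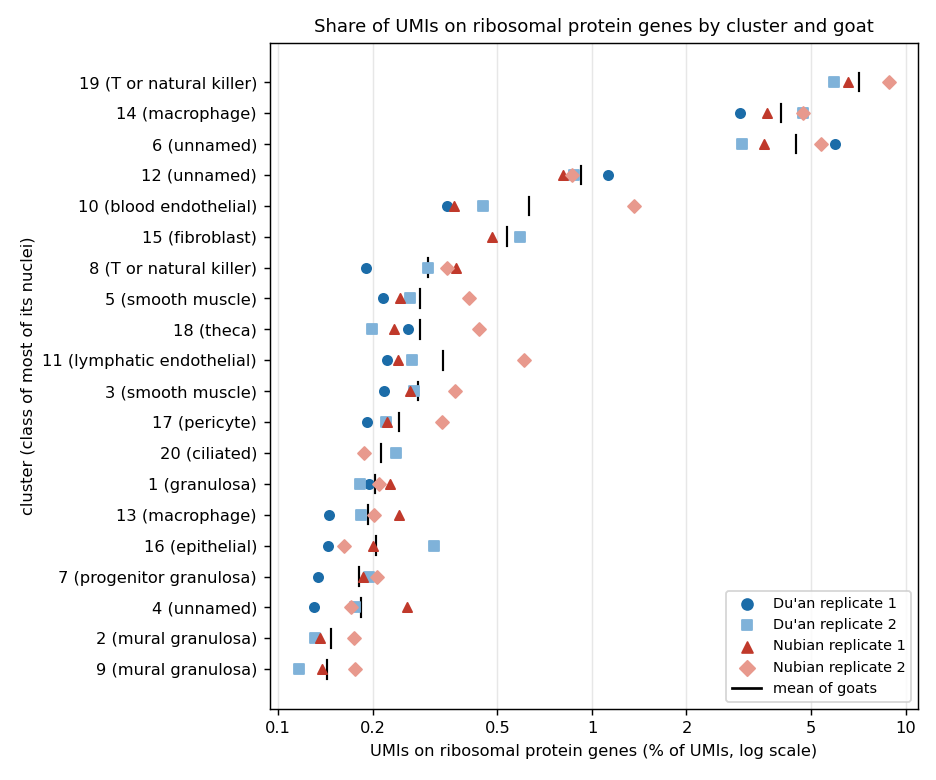
Share of UMIs on the 78 ribosomal protein genes in each cluster of nuclei, on a log axis in percent, with 1 point per goat that gave at least 20 nuclei. Clusters 19, 14 and 6 stand above 4% over all their nuclei, and every other cluster is at 0.896% or below.

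Clusters 19 and 14 were set beside the other cluster of the same class, a pair of comparisons chosen after their values were seen and given with no test. In the T or natural killer-like pair the 78 genes held 7.64% of UMIs in cluster 19 and 0.308% in cluster 8, and in the macrophage-like pair 4.44% in cluster 14 and 0.195% in cluster 13. The median log2 fold of the 78 genes, on the scale of log2(CPM + 1), was 3.94 in the first pair and 3.76 in the second, against -0.44 and -0.24 over all genes of at least 10 CPM. In every goat with at least 20 nuclei in each cluster the median was of the same size: 3.57, 3.66 and 4.2 in Du2, Nu1 and Nu2 for the first pair, and 3.77, 4.14, 3.19 and 4.04 in Du1, Du2, Nu1 and Nu2 for the second.

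Most members were higher, by folds that varied, up to 5.56 on the log2(CPM + 1) scale in the first pair and 5.42 in the second. The examples given next are of the 8 members with the highest mean CPM. RPL32 held 5173 CPM in cluster 19 against 159 CPM in cluster 8, and 2464 CPM in cluster 14 against 76.5 CPM in cluster 13. RPLP0 held 4135 against 120.5 CPM and 2112 against 75.4 CPM, and RPL10 held 2640 against 74.2 CPM and 1785 against 40.8 CPM. On the log2(CPM + 1) scale, 65 of the 78 genes were at least 2-fold higher in the first pair and 63 in the second. Of all genes of at least 10 CPM, 25.7% and 27.0% were. In both pairs, 62 of the 76 genes with at least 100 UMIs were at least 2-fold and 51 at least 8-fold higher, against 19.4% and 4.94% of all genes. Across those 76 genes the log2 folds of the pairs had a Pearson's r of 0.955, as a description, since the genes share libraries, depth and clusters.

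A minority of members did not share this difference. These 10 genes, picked after their values were seen, were under 2-fold higher in both pairs on the log2(CPM + 1) scale: RPL21, RPS6, RPL5, RPS24, RPL23A, RPS12, RPL13A, RPS21, RPL3 and RPL36A. RPL36A had log2 folds of 0.74 and 0.9 on that scale, at a mean of 2.77 CPM over the libraries. At so low a level the added 1 CPM lowers the fold, so its place among the 10 depends on the scale. RPL5, which with RPL11 can bind the p53 regulator MDM2, held 15.3 CPM in cluster 19 against 26.7 CPM in cluster 8, and 8.20 CPM in cluster 14 against 22.0 CPM in cluster 13. RPS6, the ribosomal target of S6 kinase, held 4.38 against 9.27 CPM and 1.64 against 5.43 CPM. RPS24, another gene mutated in Diamond-Blackfan anaemia, held 12 against 22.3 CPM and 5.74 against 14 CPM. RPL3, which lies near the catalytic centre of the large subunit, held 29.6 against 17.8 CPM and 21.3 against 10.8 CPM. These levels rest on few tags, with 1 to 27 UMIs for each of the 10 genes in cluster 19 and 2 to 26 in cluster 14. RPL11, RPS27, RPS15A and RPL35A were over 2-fold higher on the log2(CPM + 1) scale in 1 of the pairs only. The 10 genes made up 0.145% of the UMIs of all 78 in cluster 19, 0.170% in cluster 14 and 0.311% in cluster 6, against 10.3% in cluster 1, the largest granulosa-like cluster. RPL21, RPL36A and RPL23A were all measured beside paralogs or copies, and how the counting treated reads that match several places is not given in the sources used here.

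**Figure D3:**
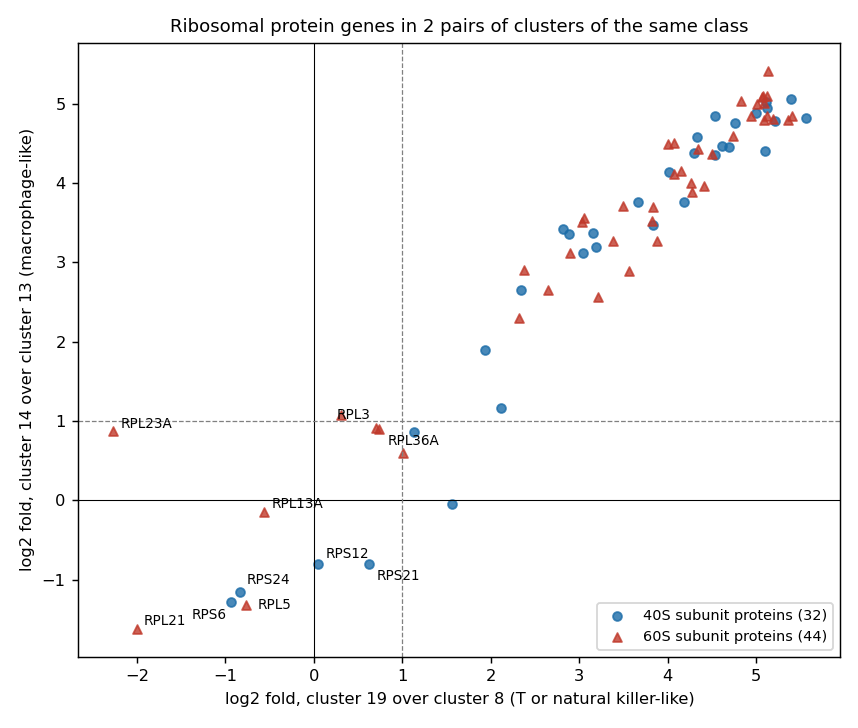
Log2 fold of each ribosomal protein gene between the cluster rich in these genes and the other cluster of the same class, with the T or natural killer-like pair on the x axis and the macrophage-like pair on the y axis, both on the scale of log2(CPM + 1) and 1 point per gene with at least 100 UMIs. Most points lie along the diagonal above 3, and the 10 labelled genes lie below 1 on both axes.

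Classes were compared on UMI sums per goat with edgeR's quasi-likelihood test, each class against the mean of the other named classes with the goat as a block, and a gene was called at a Benjamini-Hochberg adjusted p under 0.05 over 14949 genes. Of the 78 genes, 76 passed the filter on low counts. Log2 fold changes in these comparisons are those of that fit, with standard errors (SE). The p-values measure the spread left among the sums once class and goat are fitted, over all classes together. They do not measure how far the goats agree within a class.

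In T or natural killer-like nuclei 63 of 76 genes were called higher and 0 lower, against 30% of all genes called higher and 20.7% lower. The median log2 fold change of the 76 genes was 2.07, and that of all genes 0.04. RPS15 held 109.6, 134.6, 477 and 1105 CPM in Du1, Du2, Nu1 and Nu2, against a median of 34.4 CPM (0 to 632 CPM) in the 47 sums of other classes. Nu2 was above every sum of another class and the other 3 goats lay within their range, and its log2 fold change was 3.35 (SE 0.22, edgeR adjusted p = 7.01e-18). RPS13 had a log2 fold change of 3.22 (SE 0.24, edgeR adjusted p = 4.53e-16) and RPLP1 of the stalk 3.18 (SE 0.23, edgeR adjusted p = 2.72e-16). Without clusters 14 and 19, an alternative chosen after the data were seen, 8 of 76 were called higher, against 20.9% of all genes. These clusters were picked by the share of UMIs on these same genes, so a fall was fixed in advance. The values without them, with their p-values, are a description and no test. RPS15 then remained called, with a log2 fold change of 0.77 (SE 0.21, edgeR adjusted p = 0.00289), while RPS13 had 0.24 (SE 0.29, edgeR adjusted p = 0.588) and RPLP1 0.16 (SE 0.25, edgeR adjusted p = 0.705).

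Other RNA moved with these genes in T or natural killer-like nuclei. All 13 mitochondrially encoded genes and all 10 genes of a list of short, abundant cytoplasmic messenger RNAs (TMSB10, TMSB4X, FTH1, FTL, B2M, GAPDH, ACTB, UBB, PPIA and EIF1) were called higher. Of markers of other cells, 8 of 9 granulosa markers reached 10 CPM, with a sum of 653 to 1623 CPM over goats and none at 0, while the 6 macrophage markers measured summed to 8.66 to 31.3 CPM, and 2 of 6 oocyte markers were at 0. The part of these in the result was not tested.

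Macrophage-like nuclei gave a similar picture, with 59 of 76 genes called higher and 1 lower, against 30.6% and 21.7% of all genes. The median log2 fold change was 1.43, and 0.01 over all genes. RPS20 held 198, 207.5, 144 and 482 CPM in the 4 goats in the same order, against a median of 24.6 CPM (0 to 542 CPM) in 47 other sums, with a log2 fold change of 2.92 (SE 0.19, edgeR adjusted p = 5.14e-18). RPL15 (2.73, SE 0.20, edgeR adjusted p = 3.90e-16) and RPL29 (2.68, SE 0.23, edgeR adjusted p = 2.97e-14) followed. RPS24 was the gene called lower, with 19.1, 11.4, 12.2 and 10.7 CPM against a median of 25.1 CPM (6.89 to 72.6 CPM) and a log2 fold change of -0.98 (SE 0.26, edgeR adjusted p = 0.00132). Without clusters 14 and 19, edgeR called 0 genes higher and 2 lower, against 23.4% and 17.4% of all genes. Log2 fold changes were then 0.10 for RPS20, -0.29 for RPL15 and -0.41 for RPL29, none of them called. As these clusters were picked by the same genes, the fall was fixed in advance, and this is a description. RPS24 stayed lower, at -0.69 (SE 0.26, edgeR adjusted p = 0.0260). Here too all 10 cytoplasmic messenger RNAs and 9 of 13 mitochondrially encoded genes were called higher. Granulosa markers at 10 CPM or more were 8 of 9, with a sum of 358 to 1496 CPM, and T or natural killer markers 5 of 9, with a sum of 530.3 to 1166 CPM, and the part of either was not tested.

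Blood endothelial-like nuclei, which hold no cluster of the rich pair, had 40 of 76 genes called higher and 1 lower, against 20.2% and 8.13% of all genes, and 52 higher without clusters 14 and 19, against 21.5%. Those clusters were picked by these genes and enter the mean of the other classes. A shift upward without them, here and in other classes that do not hold them, was therefore fixed in advance. The 40 fell to 25 without Nu2 and to 13 at a clustering resolution of 1.2. The median log2 fold change was 0.74, and 0.05 over all genes. RPL14 held 175, 243, 171 and 827.5 CPM in the 4 goats, against a median of 72.9 CPM (27.7 to 2532 CPM), with a log2 fold change of 1.49 (SE 0.22, edgeR adjusted p = 2.19e-07). RPS13 (1.52, SE 0.27, edgeR adjusted p = 1.21e-05) and RPL36AL (1.40, SE 0.24, edgeR adjusted p = 6.00e-06) were also among the largest, and in all 3 Nu2 was the highest goat. RPL23A was the gene called lower, with 8.34, 4.80, 4.08 and 4.31 CPM against a median of 9.93 CPM and a log2 fold change of -0.86 (SE 0.33, edgeR adjusted p = 0.0431). All 13 mitochondrially encoded genes and 7 of 10 cytoplasmic messenger RNAs were called higher in this class, and stromal markers summed to 2367 to 3806 CPM with 6 of 7 at 10 CPM or more. In fibroblast-like nuclei, which reached 20 nuclei in 2 goats, 10 genes were called higher and 0 lower, against 9.36% and 1.81% of all genes. RPL4 held 252.5 CPM in Du2 and 77.1 CPM in Nu1, against a median of 30.6 CPM in 49 other sums, with a log2 fold change of 1.67 (SE 0.40, edgeR adjusted p = 0.00236). RPL35 and RPL13 were the other 2 with the largest changes, at 1.61 (SE 0.43, edgeR adjusted p = 0.00777) and 1.49 (SE 0.34, edgeR adjusted p = 0.00135). Du2 gave 21 nuclei to this class and Nu1 513, so the levels in Du2 rest on few UMIs. The 10 became 0 without Nu1, 16 without Nu2, 27 without clusters 14 and 19 and 4 at a resolution of 1.2.

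**Figure D4:**
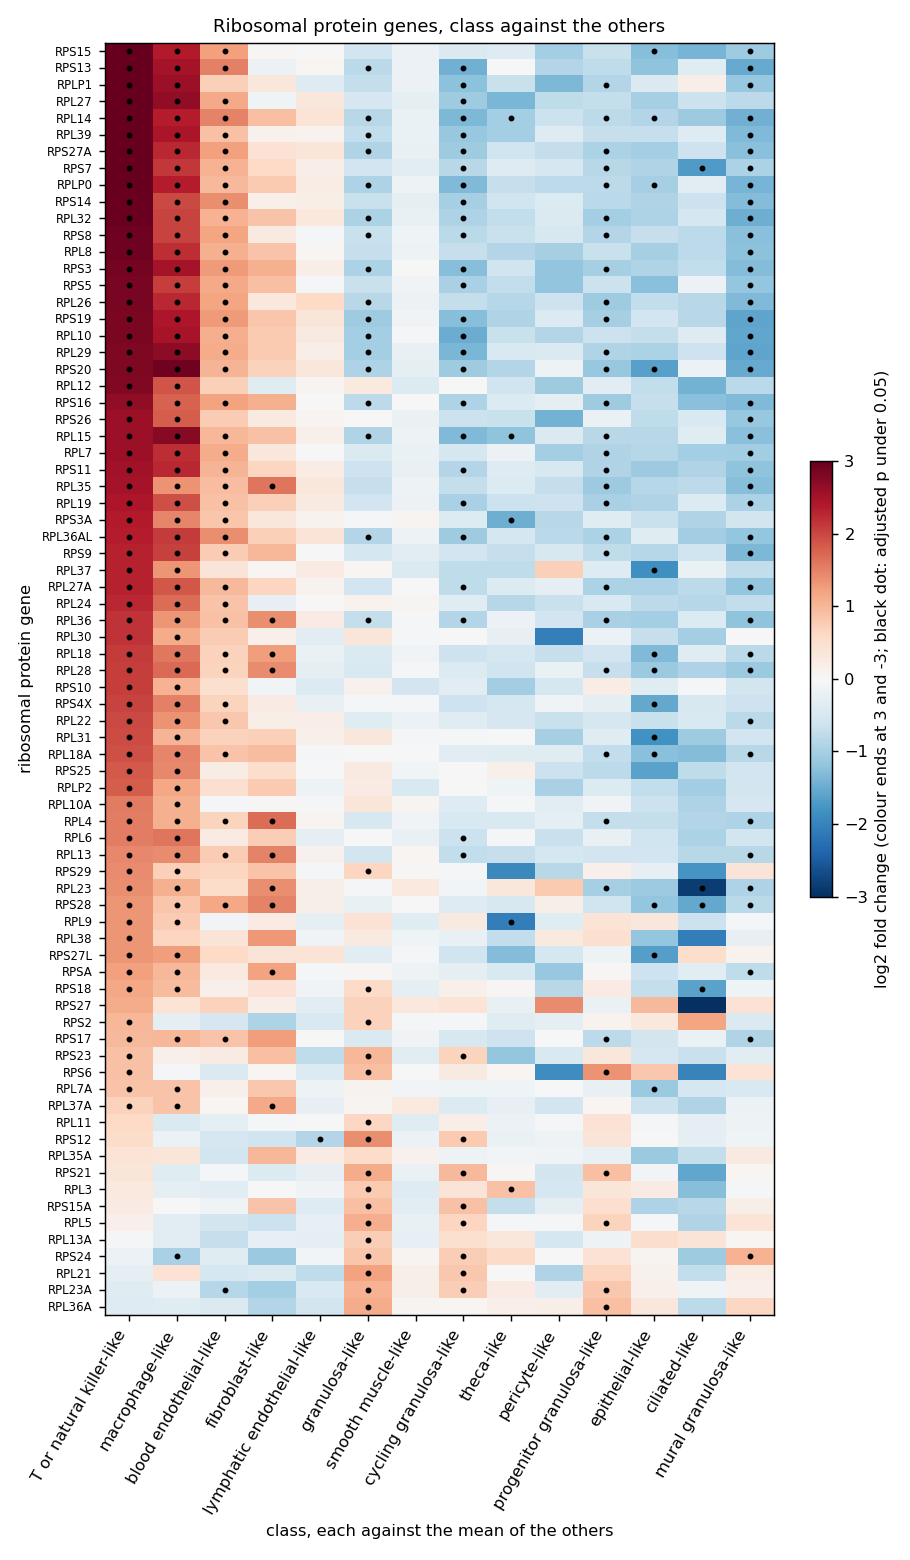
Log2 fold change of the 76 ribosomal protein genes tested in each class of nuclei against the mean of the other classes, from edgeR's fit. Genes are in rows, classes in columns, and colour gives the log2 fold change. T or natural killer-like and macrophage-like nuclei have the most genes called higher, 63 and 59, and mural granulosa-like nuclei the most called lower, 40.

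Granulosa-like nuclei, without the unnamed subclusters 7 and 8, divided the members. Called higher were 16 and called lower 17 of 76, against 21.3% and 15.0% of all genes, so the share higher was close to the background. The 16 became 9 without Nu1 and 10 without Du1, and the 17 became 8 and 10 without Nu1 and Du2, 31 by DESeq2 and 34 at a resolution of 1.2. The median log2 fold change was -0.15, and 0.03 over all genes. Of the lists that moved with T or natural killer-like nuclei, 8 of 10 cytoplasmic messenger RNAs (median -1.46) and all 13 mitochondrially encoded genes (median -0.94) were called lower here, and their part in the result was not tested. The goats also filled different subclusters of the class, with 743 of 1021 nuclei of Du1 and 896 of 1067 of Nu2 in 1 subcluster, 1660 of 2304 of Du2 in another and 1726 of 1879 of Nu1 in the next. RPS12 held 39.4, 26.8, 37.4 and 36.4 CPM in Du1, Du2, Nu1 and Nu2, against a median of 12.6 CPM (1.31 to 43.2 CPM) in 47 other sums. The 4 values lay above that median and within the range of the other sums, and its log2 fold change was 1.40 (SE 0.19, edgeR adjusted p = 8.88e-08). RPL21 held 11.2, 10.6, 17.8 and 13.4 CPM against a median of 5.91 CPM, with a log2 fold change of 1.2 (SE 0.24, edgeR adjusted p = 9.44e-05), and RPL36A rose by 1.10 on the log2 scale (SE 0.30, edgeR adjusted p = 0.00300). RPS19 was lower, with 43.7, 63.7, 57.5 and 61.7 CPM against a median of 103 CPM (30.6 to 2530 CPM) and a log2 fold change of -1.06 (SE 0.29, edgeR adjusted p = 0.00290). RPL29 had -1.03 (SE 0.30, edgeR adjusted p = 0.00462) and RPL10 -1.02 (SE 0.30, edgeR adjusted p = 0.00629).

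The 16 genes higher in granulosa-like nuclei included all 10 that were under 2-fold higher in clusters 14 and 19 on the log2(CPM + 1) scale. Their median log2 fold change was 1.06, while the other 66 had a median of -0.44 with 6 called higher and 17 lower. Since the 10 were chosen after these values were known, and clusters 8 and 13, which also chose them, are among the other classes, this is a description. Without clusters 14 and 19, all 10 were again called higher in granulosa-like nuclei, with a median of 1.08. Of the other 66, 12 were called higher and 6 lower, against 23.3% and 14.2% of all genes. A shift upward was fixed in advance for the genes rich in those clusters, which enter the mean of the other classes. As levels, RPL5 had 41.4 ± 8.3 CPM in granulosa-like nuclei (SD, n = 4) against 23.4 ± 5.0 CPM in T or natural killer-like and 17.6 ± 10 CPM in macrophage-like nuclei, and RPS24 had 36.8 ± 5.1 CPM against 19.5 ± 5.6 and 13.3 ± 3.9 CPM (SD, n = 4 for each). RPL32, for comparison, had 68.8 ± 2.90 CPM in granulosa-like nuclei against 1145 ± 1242 and 622 ± 503 CPM in those classes (SD, n = 4 for each).

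The other granulosa classes leaned lower. In mural granulosa-like nuclei, which line the wall of a large follicle, 1 gene was called higher and 40 lower, against 19% and 13.8% of all genes, with a median of -0.80 (0.04 over all genes). RPS24 was the gene called higher, at 38.4, 37.6 and 36.8 CPM in Du2, Nu1 and Nu2, with a log2 fold change of 1.04 (SE 0.20, edgeR adjusted p = 3.61e-05). RPL29 held 17.2, 22.2 and 36.3 CPM in these goats against a median of 60.3 CPM (18.2 to 1363 CPM), with a log2 fold change of -1.58 (SE 0.36, edgeR adjusted p = 0.000384). RPS19 and RPL10 changed alike, at -1.57 (SE 0.35, edgeR adjusted p = 0.000308) and -1.57 (SE 0.36, edgeR adjusted p = 0.000583). Progenitor granulosa-like nuclei had 5 genes called higher and 27 lower, against 19.1% and 10.2% of all genes. All 5 were of the 10 named above, with RPS6 first at 10.6, 8.50, 7.11 and 11.9 CPM against a median of 4.52 CPM and a log2 fold change of 1.35 (SE 0.25, edgeR adjusted p = 3.32e-05). RPS21 (0.91, SE 0.23) and RPL36A (0.90, SE 0.34) were also higher, and RPS20 (-1.13, SE 0.27), RPL35 (-1.08, SE 0.34) and RPL26 (-1.06, SE 0.31) were the 3 with the largest decreases. Cycling granulosa-like nuclei had 8 called higher and 26 lower, against 19% and 17.5% of all genes. RPS21 (0.96, SE 0.24), RPS15A (0.87, SE 0.25) and RPL21 (0.80, SE 0.29) led those called higher, and RPL10 (-1.50, SE 0.33), RPS13 (-1.44, SE 0.36) and RPL29 (-1.36, SE 0.32) those called lower. In Nu1, RPS15A and RPL21 held 3.50 and 5.25 CPM, below the medians of 5.93 and 5.98 CPM in the other sums, while the other goats were above those medians. Cytoplasmic messenger RNAs called lower were 10 of 10 in mural, 7 in progenitor and 9 in cycling granulosa-like nuclei, and mitochondrially encoded genes 12, 0 and 13 of 13, and their part was not tested. Of the mural nuclei, 3671 of 4291 of Nu1, 1424 of 1439 of Du2 and 403 of 428 of Nu2 sat in 3 separate subclusters, so goat and subcluster cannot be told apart there. Without clusters 14 and 19, which were picked by these genes and enter the mean of the other classes, a shift upward was fixed in advance. The counts lower were then 32 in mural, 14 in progenitor and 14 in cycling granulosa-like nuclei, against 13.7%, 10.1% and 16.0% of all genes. Without Nu1 they were 25, 14 and 8, the mural count was 23 without Du2, and the progenitor count was 11 without Du1 and 42 at a resolution of 1.2.

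Compared directly, few members were called between the granulosa classes. Mural against other granulosa-like nuclei gave 0 genes higher and 3 lower, against 5.92% and 6.92% of all genes, and 21 of 76 at an unadjusted p under 0.05, against 22.9%. The median log2 fold change was -0.54 (0.02 over all genes), and 2 of 76 members were above 0. RPS12 held 11.1, 10.4 and 12 CPM in mural granulosa-like nuclei, below the 26.8 to 39.4 CPM of the 4 granulosa-like sums with no overlap, and its log2 fold change was -1.41 (SE 0.31, edgeR adjusted p = 0.000833). RPS23 had -1.2 (SE 0.32, edgeR adjusted p = 0.00696) and RPS21 -0.96 (SE 0.31, edgeR adjusted p = 0.0275). Progenitor against granulosa-like nuclei had a median of -0.22 (-0.01 over all genes), with 14 of 76 members above 0. That comparison gave 0 higher and 2 lower, against 12.7% and 9.29% of all genes. These were RPS12, with 18.2, 12, 13.5 and 24.4 CPM and a log2 fold change of -0.95 (SE 0.28, edgeR adjusted p = 0.00982), and RPL13A, which can leave the ribosome to silence messenger RNAs, with -0.84 (SE 0.31, edgeR adjusted p = 0.0426). The 3 lower in mural nuclei became 1 without Nu1 and 9 without clusters 14 and 19, and the 2 in progenitor nuclei became 1 without either Du'an goat or without Nu1, 4 without Nu2 and 5 without those clusters. Cycling granulosa-like nuclei were set against the mean of granulosa-like and mural granulosa-like nuclei, leaving out the progenitor class. This comparison gave 0 calls by edgeR, 0 at an unadjusted p under 0.05 and 0 by DESeq2. Of all genes, edgeR called 5.32% higher and 3.3% lower, and 21.0% had an unadjusted p under 0.05, and the members' log2 fold changes ran from -0.75 to 0.37 around a median of -0.004.

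The remaining classes gave few calls. Epithelial-like nuclei had 0 genes higher and 13 lower, against 14.9% and 9.06% of all genes, led by RPL37 (-1.85, SE 0.65), RPL31 (-1.81, SE 0.54) and RPS27L (-1.66, SE 0.61). RPL37 held 0, 4.29, 9.39 and 1.84 CPM in the 4 goats of this class, so its low level rests on few UMIs, and all 3 changed direction at a resolution of 1.2, where 1373 of the 1923 nuclei in the class came from cluster 6 and 62 of 75 genes were called higher. The 13 became 33 without Du2, 5 without Nu1 and 0 without Nu2. Theca-like nuclei, the androgen-making cells of the follicle wall, had 1 higher and 4 lower, against 7.56% and 9.37% of all genes. RPL3 was higher there, with 61.2, 27.3, 20.4 and 48.0 CPM against a median of 14.4 CPM and a log2 fold change of 0.89 (SE 0.32, edgeR adjusted p = 0.0479). RPL9 (-2.07, SE 0.72), RPS3A (-1.46, SE 0.47) and RPL15 (-1.21, SE 0.37) were lower. The goats did not all agree. RPL9 held 10.2, 2.48, 0 and 3.70 CPM against a median of 9.95 CPM in the other sums. RPS3A held 0, 9.93, 35.6 and 29.6 CPM against 34.1 CPM, and RPL15 in Nu2 held 62.8 against 62.0 CPM. RPL3 was not called without Du1, Du2 or Nu2, and the 4 lower became 2 without Du1, 0 without Du2 and 1 without Nu1. In this class stromal markers summed to 4461 to 6475 CPM and mural granulosa markers to 929 to 4465 CPM, against 112 to 1164 CPM for those of theca, and their part was not tested. Ciliated-like nuclei, present in 2 goats, had 0 higher and 4 lower, against 16.3% and 8.97% of all genes, namely RPL23 (-2.85, SE 1.00), RPS7 (-1.70, SE 0.59), RPS18 (-1.60, SE 0.55) and RPS28 (-1.52, SE 0.58). The 4 became 1 without clusters 14 and 19 and by DESeq2, 2 without Du2 or Nu1, and 0 without Nu2 or without the block. Lymphatic endothelial-like nuclei had 0 higher and 1 lower, RPS12 with a log2 fold change of -0.89 (SE 0.32, edgeR adjusted p = 0.0324), against 18.0% and 6.27% of all genes. The call was lost without either Du'an goat. Without clusters 14 and 19, 13 members were called higher, against 18.7% of all genes. For this class, as for ciliated-like nuclei, a shift upward without those clusters was fixed in advance. In pericyte-like and smooth muscle-like nuclei edgeR called 0 of the 76 genes, with 9 and 1 at an unadjusted p under 0.05, against 23.1% and 30% of all genes, and 0 called by DESeq2 in either class. Of all genes, 7.37% were called higher and 4.38% lower in pericyte-like nuclei, and 17.5% and 3.19% in smooth muscle-like nuclei.

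Genes that work with the ribosome were counted in the same fits. Translation factors and other messenger RNAs with a pyrimidine tract, a list of 19 that includes EEF1A1, TPT1, RACK1 and FAU, had 15 called higher in T or natural killer-like nuclei, 14 in macrophage-like and 10 in blood endothelial-like nuclei, against 30%, 30.6% and 20.2% of all genes, with none lower, and medians of 1.11, 0.98 and 0.66. Mitochondrial ribosomal proteins, which serve the separate ribosome of the mitochondrion, had 45 and 50 of 76 called higher in T or natural killer-like and macrophage-like nuclei, with 1 and 3 lower, beside the same shares of all genes. Ribosome biogenesis genes, which act in the nucleolus, were called higher in other classes: 16 of 21 were called higher in granulosa-like nuclei with none lower (median 0.80) and 13 in progenitor granulosa-like nuclei (median 0.76), against 21.3% and 19.1% of all genes, but 3 in T or natural killer-like and 2 in macrophage-like nuclei, where 1 and 7 were lower. Growth control genes such as MTOR and TSC1 had 4 of 11 called higher and 1 lower in granulosa-like nuclei, a count not far from that share. Of 3 paralogs outside the rule (RPL7L1, RPL22L1 and RPL26L1), 2 were higher in granulosa-like nuclei.

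The same lists were set beside each other in the pairs of clusters, again without a test. Cytoplasmic messenger RNAs had medians of 4.12 and 4.80 on the log2 scale in the T or natural killer-like and macrophage-like pairs, with 10 of 10 over 2-fold higher in both. Translation factors had medians of 2.66 and 2.73, with 16 and 15 of 19 over 2-fold higher, and mitochondrial ribosomal proteins 2.03 and 2.31, with 53 and 58 of 77. Ribosome biogenesis genes had medians of 0.04 and 0.59, growth control genes -0.81 and -0.67, and mitochondrially encoded genes 0.02 and -0.58.

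The genes whose pattern was most like that of the summed ribosomal proteins were sought over 51 class sums among 9315 genes that are no members and had at least 10 CPM, by Pearson's r of log2 levels, as a description with no p, since sums of 1 goat share a library. The 8 highest all carry locus names: LOC108637681 (r = 0.974), LOC102169255 (0.974), LOC102172558 (0.969), LOC102169182 (0.966), LOC102168701 (0.965), LOC108636572 (0.964), LOC102178261 (0.962) and LOC102189480 (0.960). The RefSeq table lists 5 of them as transcribed pseudogenes, 2 as protein coding and 1 as a long non-coding RNA. The median r over all genes compared was -0.02. Among genes of the lists, TMSB10 had an r of 0.936 and FAU, whose product yields a small-subunit protein, 0.922. Single members varied: their median r with the sum of all was 0.78 and the lowest was -0.35.

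Breeds were compared within each class that had at least 20 nuclei in all 4 goats, 2 goats against 2, by the same test without a block. edgeR called 0 members in any of 11 classes or in all nuclei together, and 0.0% of all genes in each. By DESeq2, 46 of the 67 members tested were called higher in Nubian T or natural killer-like nuclei, against 3.17% of all genes, and 0 in the other classes. Without a filter on low counts edgeR called 55 members higher in that class, 9 in blood endothelial-like, 6 in macrophage-like and 2 in lymphatic endothelial-like nuclei, against 3.33%, 0.366%, 0.506% and 0.425% of all genes. Without Nu1 it called 56 in T or natural killer-like and 37 in blood endothelial-like nuclei, against 5.82% and 2.0% of all genes, and without Nu2 it called 12 in T or natural killer-like nuclei, against 0.548%, where the lone Nubian sample is assumed to vary as the Du'an samples do. For all nuclei, 0 of 77 members had an unadjusted p under 0.05, against 1.77% of 16801 genes, and their median log2 fold change of Nubian over Du'an was 0.36, against -0.01 over all genes. All-nuclei sums mix the number of nuclei of each class with the level within it, which cannot be told apart there. Both Nubian goats were above both Du'an goats for 1 of the 76 members with at least 100 UMIs, against 11.6% of all genes, and below both for 3, against 10.2%.

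T or natural killer-like nuclei came nearest to a difference between breeds. The share of UMIs on the 78 genes was 0.550% and 0.523% in the Du'an goats and 1.62% and 4.31% in the Nubian goats, and the breeds did not overlap, though an exact permutation test of 2 goats against 2 cannot give a p below 0.333. RPL32 held 303.0 and 303.8 CPM in the Du'an goats and 1038 and 2935 CPM in the Nubian goats, with a log2 fold change of 2.81 (SE 0.55, edgeR adjusted p = 0.157). Unadjusted p-values under 0.05 were found for 57 of 67 members, against 12.5% of all 9066 genes, with a median log2 fold change of 2.28, and the lowest adjusted p of any member was 0.157. Cytoplasmic messenger RNAs had a median log2 fold change of 2.26 in the same comparison, translation factors 1.35 and mitochondrial ribosomal proteins 0.93, and their part was not tested. Cluster 19 made up 2.44%, 2.62%, 12.8% and 33.5% of this class in Du1, Du2, Nu1 and Nu2. Without it, a choice made from this same share, the share of UMIs was 0.191%, 0.300%, 0.368% and 0.346% in the same order. Of 55 members, 2 then had an unadjusted edgeR p under 0.05, against 3.66% of all genes. Du1 gave 3 nuclei to cluster 19, Du2 gave 45, and Nu1 and Nu2 53 and 110.

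In other classes the breeds were closer. In macrophage-like nuclei the Nubian goats lay on both sides of the Du'an goats, at 0.748% and 2.52% against 0.757% and 0.767%, and cluster 14 made up 56.4%, 23.2%, 23.7% and 73.8% of the class in Du1, Du2, Nu1 and Nu2. In blood endothelial-like nuclei 0 of 67 members had an unadjusted p under 0.05, against 2.54% of all genes, with a median of 0.94. Nu2 had a share of 1.36% in this class, above the 0.346% to 0.450% of the other goats. In cycling granulosa-like nuclei the share was 0.249% and 0.211% in the Du'an goats and 0.114% and 0.210% in the Nubian goats, with 9 of 74 members at an unadjusted p under 0.05, against 2.23% of all genes, and a median of -0.53. The nuclei of that class sat in different clusters: 757 of the 856 of Nu1 were in a granulosa subcluster at 0.101% that held 0, 37 and 11 nuclei of Du1, Du2 and Nu2, and in the other subcluster of cycling nuclei the goats had 0.249%, 0.234%, 0.224% and 0.209%. In smooth muscle-like nuclei 9 of 75 members had an unadjusted p under 0.05, against 3.73%, with a median of 0.36. In granulosa-like nuclei 0 of 76 did, against 2.5% of all genes, and the median was 0.11.

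**Figure D5:**
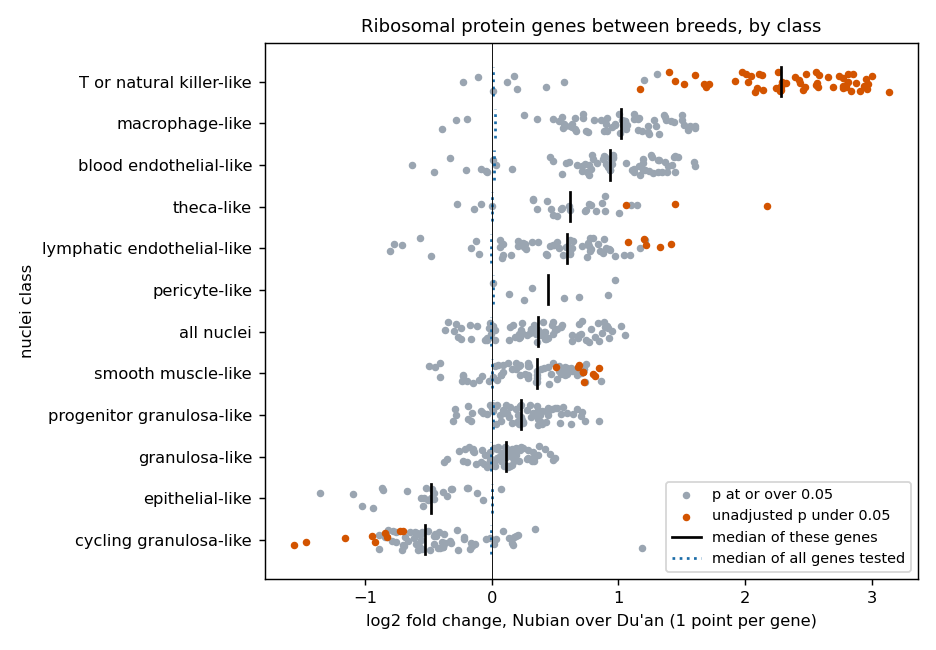
Log2 fold change of Nubian over Du'an goats in edgeR's fit, for classes present in all 4 goats, on a linear axis. Each point is 1 ribosomal protein gene, coloured by its unadjusted p, with the medians of these genes and of all genes. The ribosomal protein genes have a median of 2.28 for T or natural killer-like nuclei and 1.02 for macrophage-like nuclei. Their median is below 0 only for cycling granulosa-like and epithelial-like nuclei, at -0.53 and -0.48.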

How the data were processed

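Single nuclei of 4 goat ovaries were sequenced, and the authors deposited for each library a matrix of raw UMI counts per gene and nucleus, filtered to barcodes of nuclei. Cell Ranger 5.0.0 is named in the submitters' processing notes and the matrix headers give software version 3.1.0. The counting of intronic reads, of strand and of reads with several matches is not given in the sources used here, so members with close copies or overlapping genes are uncertain. Deposited tables of the authors' marker genes of granulosa subtypes and follicle stages hold fold changes, p-values and shares of nuclei and were not used.

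Barcodes within the mean ± 2 SD of UMIs and of genes in their library and with at most 20% mitochondrial UMIs were kept, which follows the type of limit the study describes. No doublet caller was used, so doublets were limited by the upper UMI bound only. Nuclei were scaled to 10000 UMIs and clustered on 2000 variable genes, 30 principal components and 20 neighbours (scanpy 1.11.5, Leiden resolution 0.8, and 1.0 within granulosa clusters). A cluster was named X-like where at least 3 markers of a class reached 10 CPM and a log2 fold of 1 over the median of the other clusters, with a mean log2 fold of at least 0.5 over the list, or 1.5 for cycling. A cluster stayed unnamed where immunoglobulin or T cell receptor segments were among its 10 leading genes under a name other than a lymphocyte's. This rule kept cluster 6 and granulosa subclusters 7 and 8 out of every class. A cluster also stayed unnamed where it was shallow and led by no marker. Differences from the study's cell types may come from these rebuilt names.

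Raw counts were summed per goat and class where at least 20 nuclei were present, and tested with edgeR 4.0.16 (quasi-likelihood test, TMM scaling, Benjamini-Hochberg adjustment over all genes tested, two-sided), with the goat as a block between classes and no block between breeds. DESeq2 1.42.0 was an alternative, and genes without an adjusted p by DESeq2 were left out of its counts. SEs are the absolute log2 fold change divided by the square root of the F statistic. The log2(CPM + 1) scale was used where stated. On simulated counts with 100 genes changed at each fold, 85% of 2-fold and 100% of 4-fold changes were recovered for macrophage-like nuclei against the others (12839 genes), and for the breeds 35% and 100% in granulosa-like (12095 genes) and 22% and 96% in smooth muscle-like nuclei (11793 genes). The simulation gave every gene the same spread and changed only well-counted genes. It does not give the recovery for members with low counts or for classes in which goats differ more.

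The ribosomal protein genes and the lists were chosen with earlier results of these data known. Named were the 8 members with the highest mean CPM, members ending in L, X or Y with RPLP0, RPLP1, RPLP2 and RPSA, up to 3 called members per direction and contrast with the largest change, and the 8 genes most like the summed members. The 10 members alike in the cluster pairs, RPL11, RPS27, RPS15A, RPL35A, the values of RPL32 beside them and between breeds, and RPS28 in ciliated-like nuclei were chosen after their values were seen. 1 gene of a list is not reported here by name.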

Additional observations from a re-analysis of the deposited data

Results flagged for a closer look

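Some signal lay in nuclei that enter no comparison. The unnamed cluster 6 had 4.27% of its UMIs on the 78 ribosomal protein genes, against 0.382% over the pooled UMIs of all nuclei kept. The unnamed granulosa subclusters 8 and 7 had 1.04% and 0.490%. Barcodes removed for their mitochondrial share, 1110 in all, had 0.52% of their UMIs on these genes. The 2350 barcodes removed for UMI or gene count alone had 1.57%, with 0.588%, 1.38%, 0.468% and 3.64% in Du1, Du2, Nu1 and Nu2, and a median of 18120, 22050, 16010 and 25080 UMIs.

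In 4 classes both Nubian goats lay on the same side of both Du'an goats, and these 4 did not all lie on the same side. In every other class with at least 20 nuclei in all 4 goats, the breeds overlapped. An exact permutation test of 2 goats against 2 cannot give a p below 0.333. Separation of the breeds in some of the classes can therefore arise with no difference between breeds. The difference of the mean share of UMIs, Nubian minus Du'an, was -0.0685 percentage points in cycling granulosa-like nuclei (0.162% against 0.230%), 0.0242 in granulosa-like nuclei (0.220% against 0.196%), 0.0718 in pericyte-like nuclei (0.278% against 0.206%) and 2.43 in T or natural killer-like nuclei (2.97% against 0.537%). In cycling granulosa-like nuclei 757 of the 856 nuclei of Nu1 were in a subcluster at 0.101% that the other goats hardly filled, and in the other subcluster Nu1 had 0.224%. Nu2 and Du2 lay close together in this class, at 0.2098% and 0.2112%. The difference between classes was not tested.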

How the results depend on the processing

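Counts of calls are over all named classes unless a class is named. There were 203 calls higher against the other classes, 137 without clusters 14 and 19 and 173 to 199 with a goat left out, and 134 calls lower, 81 without those clusters, 67 with no replicate block and 66 to 117 with a goat left out; these are separate counts that can include new calls. With no replicate block the calls lower were 22 in mural, 10 in progenitor, 10 in granulosa-like and 2 in epithelial-like nuclei and 4 were higher in fibroblast-like nuclei. At a resolution of 1.2, 13 were higher in blood endothelial-like and 4 in fibroblast-like nuclei, and 34 were lower in granulosa-like, 42 in progenitor and 0 in epithelial-like nuclei. Without clusters 14 and 19, chosen after the data were seen, the calls higher were 8 in T or natural killer-like, 0 in macrophage-like, 13 in lymphatic endothelial-like and 27 in fibroblast-like nuclei, and the calls lower 6 in granulosa-like, 14 in progenitor, 14 in cycling and 6 in epithelial-like nuclei. Those clusters were picked by these same genes. A fall in the classes that hold them and a shift upward in the others were therefore fixed in advance. DESeq2 called 31 lower in granulosa-like nuclei, no low-count filter gave 26 lower in epithelial-like nuclei, and a minimum of 50 nuclei gave 5 there. Leaving out a goat gave calls higher of 55 to 64 in T or natural killer-like, 52 to 59 in macrophage-like, 25 to 39 in blood endothelial-like, 9 to 18 in granulosa-like and 0 to 16 in fibroblast-like nuclei, and calls lower of 23 to 39 in mural, 11 to 24 in progenitor, 8 to 32 in cycling, 8 to 18 in granulosa-like and 0 to 33 in epithelial-like nuclei. Between granulosa subtypes the 5 calls lower became 8 with no low-count filter, 8 at a resolution of 1.2, 14 without clusters 14 and 19, and 2 to 9 with a goat left out. Log2 fold changes turned in epithelial-like nuclei at a resolution of 1.2, to 2.59 for RPL37, 2.47 for RPL31 and 3.03 for RPS27L, and in macrophage-like nuclei without clusters 14 and 19, to -0.29 for RPL15 and -0.41 for RPL29. Of 566 alternative values of named members, 475 kept their direction and call, 86 kept the direction and lost the call, and 5 turned. The cause of these shifts was not tested.

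Between breeds within classes, the 0 calls higher became 46 by DESeq2, 72 with no low-count filter, and 0 to 93 with a goat left out (93 without Nu1 and 12 without Nu2). The replicate block gave 0 calls in every class and in all nuclei. Goats with the same number share only a number, with a correlation of 0.17 between their deviations over 16801 genes in 2 pairs. The mean share of UMIs on the 78 genes in all nuclei moved by less than 1 SD between goats when mitochondrial genes were left out of the total or nuclei were limited to 5% mitochondrial UMIs. For the breeds, simulated 2-fold changes were recovered in 35% of genes in granulosa-like and 22% in smooth muscle-like nuclei, and 4-fold changes in 100% and 96%. These values hold for well-counted genes that all have the same simulated spread.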
